A study of Mus musculus with 3 samples.

Results

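The genes described here encode the subunits of the Kv4 channel complex: the pore-forming Kv4 subunits Kcnd2 and Kcnd3, the calcium-binding KChIP subunits Kcnip1, Kcnip2, Kcnip3 and Kcnip4, and the DPP subunits Dpp6 and Dpp10. They were taken by symbol from the gene lists of the deposited matrices, and 8 of the 32285 listed genes are members. Kv4 channels carry the rapidly inactivating A-type potassium current of neuronal dendrites and cell bodies, which delays firing and limits the spread of action potentials back into the dendritic tree. KChIPs bind the cytoplasmic end of the Kv4 protein, bring the channel to the membrane and set its recovery from inactivation. Dpp6 and Dpp10 are membrane proteins related to dipeptidyl peptidases that lack peptidase activity and speed the gating of the complex.

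The study measured nuclear RNA of single hippocampal nuclei from 3 adult female mice of the genotype Scn8aD/+, heterozygous for the D allele of the sodium channel gene Scn8a. The titles place all 3 libraries after onset, so the mice form 1 group, and no control or pre-onset library is analysed here. The labels put mice 1, 2 and 3 in batches 1, 2 and 3, so that batch and mouse cannot be told apart. Every comparison below therefore sets classes of nuclei of 1 mouse against each other, with the mouse as the replicate (n = 3), and says nothing about the genotype.

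The libraries held 8863, 13904 and 4659 barcodes for mice 1, 2 and 3, with a median of 8859, 1711 and 25775 unique molecular identifiers (UMIs) per barcode. Mouse 2 stood apart by its low depth. Between 13 and 36 barcodes were shared by any 2 libraries, at most 0.537% of the smaller one. After filters and removal of doublets 7889, 11756 and 4393 nuclei remained. Nuclei were clustered without the 8 members and the context genes, and clusters were called "X-like" from fixed marker lists. Of the nuclei of mouse 2, 3536 stayed unnamed, against 315 and 24 in mice 1 and 3. Many sub-clusters came mostly from 1 mouse.

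Levels are given in CPM, the UMI count of a gene in the summed nuclei of a class in 1 mouse, scaled so that all genes of each such sum have the usual CPM total. The members differ widely in length, and nuclear RNA is largely unspliced, so a CPM value compares classes and not genes. Per length of gene, over all glutamatergic neuron-like nuclei, Kcnip4 had 731 CPM per 100 kb of span and Kcnd2 had 592. Kcnip3 followed with 349, Kcnip2 with 207, Dpp10 with 173, Kcnd3 with 148 and Dpp6 with 113 CPM per 100 kb. Kcnip1 was lowest, at 6.65 CPM per 100 kb. The order depends on the length used: per kb of exon, Kcnip4 (2289 CPM) and Kcnd2 (591 CPM) were again highest, but Dpp6 (83.1 CPM) stood above Kcnip3 (64.6 CPM) and Kcnip2 (14.5 CPM). In mm10, with GENCODE M21 models, the members span from 24.2 kb (Kcnip2, chromosome 19) to 1135 kb (Kcnip4, chromosome 5), and introns make up most of each span. The span of Kcnip4 holds 31 other annotated genes, 1 of them protein coding (5730480H06Rik). That of Kcnip1 holds the coding genes Kcnmb1 and 4930469K13Rik, and that of Dpp6 holds Speer4b. Use of strand in the counting is not stated in the labels or headers, so reads of overlapping genes could not be told apart.

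**Figure D1:**
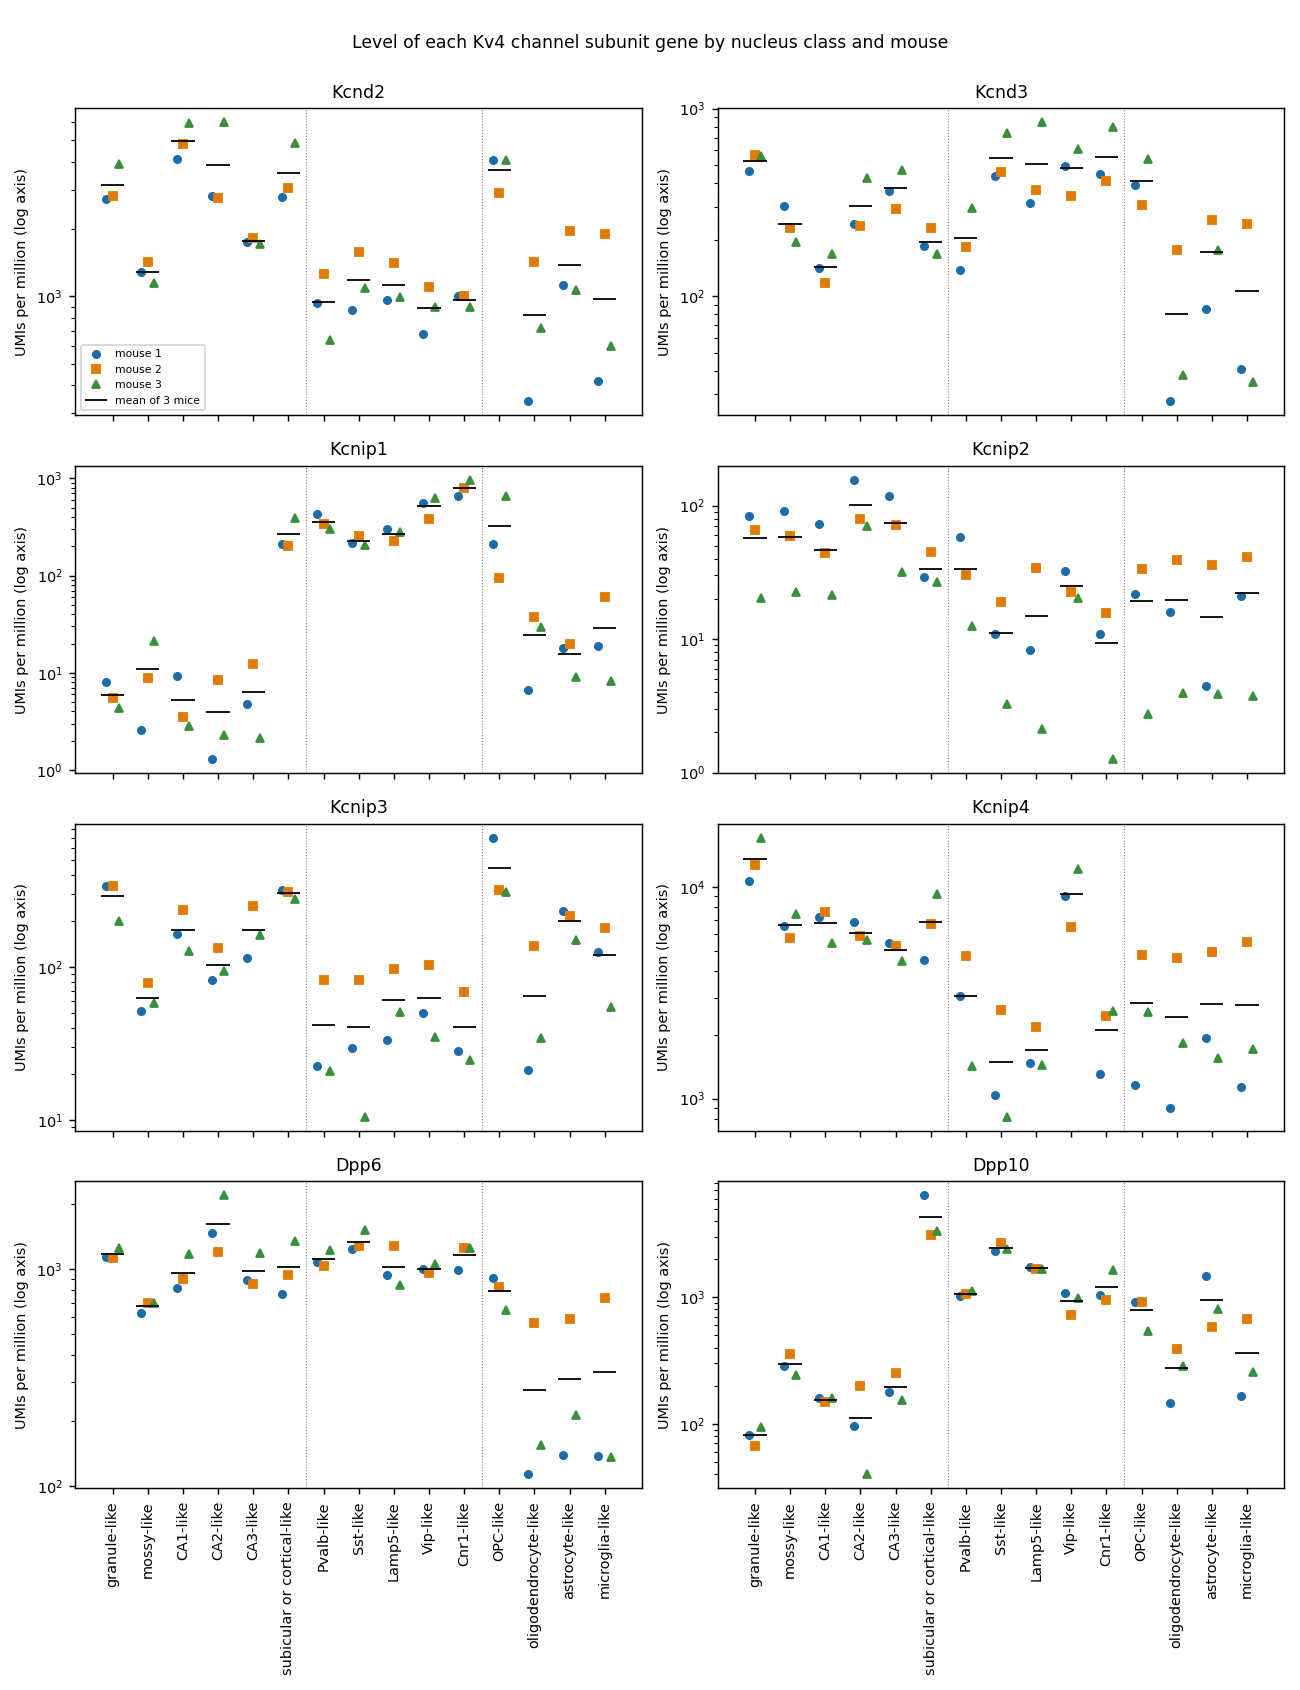
Level of each member in 15 classes of nuclei, in CPM on a log axis; circles, squares and triangles are mice 1, 2 and 3 and the bar is their mean. Kcnip1 is near 10 or below in granule-, CA1-, CA2- and CA3-like nuclei apart from mouse 2 in CA3 (12.3), and Dpp10 is lowest in granule-like nuclei by the mean.

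Differences between classes were tested with edgeR's quasi-likelihood test on summed counts with the mouse as a block, and a gene was called where its Benjamini-Hochberg adjusted p over all genes tested was under 0.05 and its log2 fold change was at least 1 in size. All 8 members could be tested in each of the 7 comparisons. In inhibitory against glutamatergic neuron-like nuclei 5 members were called, 1 higher and 4 lower, where 14.6% of all 16560 genes tested were called, 7.68% higher and 6.93% lower. In granule-like against CA pyramidal-like nuclei (CA1-, CA2- and CA3-like together) 3 members were called, 2 higher and 1 lower, with a background of 19.1% (6.42% higher and 12.6% lower). In CA3-like against CA1-like nuclei 2 were called, 1 in each direction, with a background of 10.7% (6.58% higher and 4.14% lower), and in subicular or cortical-like against CA pyramidal-like nuclei 2, both higher, with a background of 13.2% in either direction, 7.06% higher and 6.13% lower. In Pvalb-like against Sst-like nuclei 3 were called, 1 higher and 2 lower, against a background of 4.36% (2.13% higher and 2.23% lower). In neuron-like against glia-like nuclei 2 were called, both higher, against a background of 24.1% in either direction, 9.37% higher and 14.8% lower. In OPC-like against oligodendrocyte-like nuclei (OPC, oligodendrocyte precursor cell) 5 were called, all higher, against 16.3% in either direction, 8.86% higher and 7.46% lower. The median log2 fold change of all genes tested lay between -0.02 and 0.03 in the 7 comparisons. Without the mouse as a block, no member was called by edgeR between CA3-like and CA1-like, granule-like and CA pyramidal-like, or Pvalb-like and Sst-like nuclei, with 441, 1897 and 151 genes called in all.

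**Figure D2:**
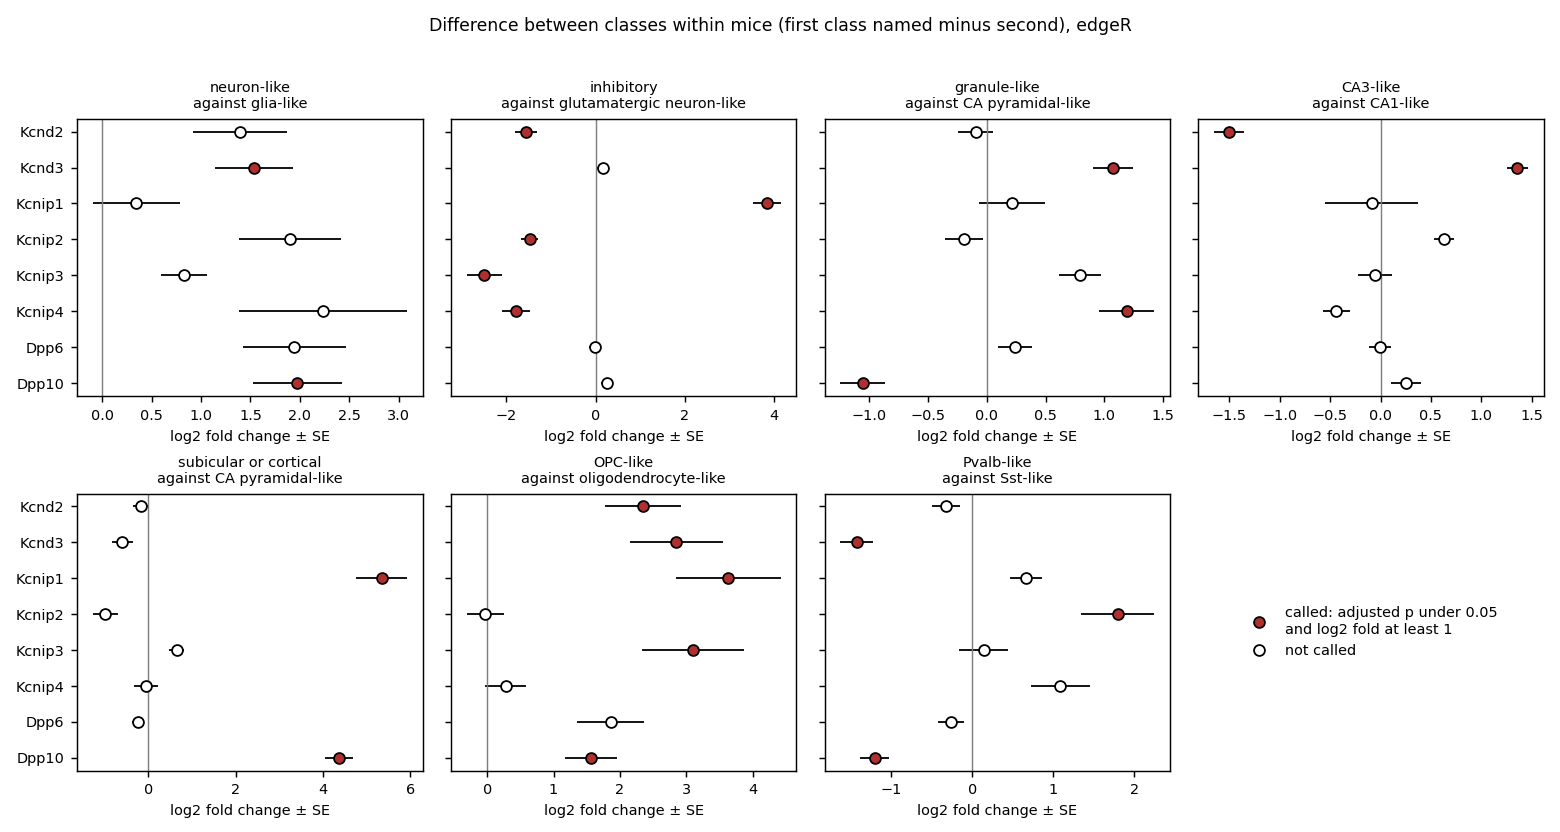
Fitted log2 fold change of each member in the 7 comparisons, first class named minus second, with its standard error; filled points were called by edgeR (adjusted p under 0.05 and log2 fold of at least 1). The axis range differs between panels. Kcnd2 and Kcnd3 are called in opposite directions between CA3-like and CA1-like nuclei (-1.503 and 1.36).

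Kcnd2, the Kv4.2 pore subunit, was highest in CA1-like nuclei by the mean. Its level there was 4124, 4818 and 5924 CPM in mice 1, 2 and 3. CA3-like nuclei of the same mice had 1758, 1828 and 1708 CPM. Every mouse was lower in CA3-like nuclei and the 2 classes did not overlap. The fitted log2 fold change, CA3-like minus CA1-like, was -1.503 ± 0.147 (SE, adjusted p = 0.00108, edgeR).

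Kcnd3, which encodes another Kv4 pore subunit, Kv4.3, ran the opposite way between these classes. It had 141, 118 and 169 CPM in CA1-like nuclei and 365, 290 and 470 CPM in CA3-like nuclei of mice 1, 2 and 3. CA3-like nuclei were higher in all 3 mice, without overlap, by 1.36 ± 0.106 on the log2 scale (SE, adjusted p = 0.000505, edgeR). Both calls held when any 1 mouse was left out, over which the log2 fold change ran from -1.63 to -1.37 for Kcnd2 and from 1.28 to 1.40 for Kcnd3. Without the mouse block neither was called (adjusted p = 0.0664 for Kcnd2 and 0.106 for Kcnd3, edgeR). Of the other members Kcnip2 passed the p threshold in this comparison but not the fold (log2 fold change 0.63, adjusted p = 0.00732, edgeR), and 5 did not pass it. The 8 CA1 markers summed to 15.5, 20.9 and 23.4% of their CA1-like level in CA3-like nuclei, and the CA3 markers to 7.54, 8.68 and 10.9% of their CA3-like level in CA1-like nuclei.

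CA1-like nuclei were not uniform in these genes, as sub-clusters formed without the members show. In mouse 1, the sub-cluster of CA1-like nuclei with the most nuclei (684) had 4714 CPM of Kcnd2 and 91.9 CPM of Kcnd3, and a smaller one (274 nuclei) had 3052 and 231 CPM. Glutamatergic nuclei with no finer name had the CA1 markers at 79.7, 66.3 and 61.3% of the CA1-like level in mice 1, 2 and 3. Their Kcnd2 was 2497, 2363 and 2741 CPM, and the part of CA1 nuclei among them was not tested. Of these, a sub-cluster with 827 nuclei of mouse 2 had 3 of 8 CA1 markers raised, and 2791 CPM of Kcnd2. Mouse 2 had 165 CA1-like nuclei here and 861 with each library clustered alone. Which of its nuclei were called CA1-like thus depended on the clustering. In CA3-like nuclei of mouse 1 the 2 sub-clusters had 276 and 587 CPM of Kcnd3. In both sub-clusters of CA3-like nuclei Kcnd3 was above either value of CA1-like nuclei in that mouse. CA2-like nuclei had 2808, 2758 and 5993 CPM of Kcnd2 in mice 1, 2 and 3, with mouse 3 far above the other mice, and mossy-like nuclei had 1289, 1421 and 1152 CPM.

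Among inhibitory classes Kcnd2 varied little by the mean, from 890 ± 209 CPM (SD, n = 3) in Vip-like to 1179 ± 366 CPM in Sst-like nuclei, and all 5 named classes overlapped. All inhibitory nuclei together had 938, 1550 and 949.7 CPM of Kcnd2, and all glutamatergic nuclei 2870, 2775 and 3484 CPM. Inhibitory nuclei were lower in every mouse, without overlap, by a fitted log2 fold change of -1.56 ± 0.246 (SE, adjusted p = 0.0126, edgeR). Kcnd3 did not differ by the test in this comparison (log2 fold change 0.16 ± 0.126, adjusted p = 0.413, edgeR). It had 327, 309.8 and 593 CPM in inhibitory and 300.1, 281 and 402 CPM in glutamatergic nuclei.

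Within the inhibitory classes Kcnd3 separated Sst-like from Pvalb-like nuclei. Sst-like nuclei, the class marked by somatostatin, had 435, 459 and 737 CPM in mice 1, 2 and 3. Pvalb-like nuclei, marked by parvalbumin, had 138, 183 and 295 CPM. Pvalb-like nuclei were lower in every mouse and the classes did not overlap (log2 fold change -1.42 ± 0.204, SE, adjusted p = 0.000248, edgeR). Cnr1-like nuclei (552 ± 212 CPM, SD, n = 3), Lamp5-like nuclei (509 ± 293) and Vip-like nuclei (481 ± 135) had Kcnd3 levels that overlapped those of Sst-like nuclei. In the granule-like nuclei of the dentate gyrus Kcnd3 had 463, 563 and 558 CPM, against 222, 216 and 338 CPM in CA pyramidal-like nuclei. Granule-like nuclei were higher in all 3 mice, without overlap, by 1.07 ± 0.170 on the log2 scale (SE, adjusted p = 0.00413, edgeR). Without mouse 2 that value was 0.90, under the fold threshold (adjusted p = 0.0394, edgeR).

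The share of Kcnd2 among the UMIs of Kcnd2 and Kcnd3 gives the same difference within the pore subunits. It is a share of UMIs, not corrected for length, and is compared only between classes. The Kv4 gene Kcnd1, listed with the other A-type subunit genes, is not counted in that share. Of the Kcnd2 and Kcnd3 UMIs, Kcnd2 made up 97.2% ± 0.462 (SD, n = 3) in CA1-like, 92.5% ± 0.749 in CA2-like and 82.5% ± 3.95 in CA3-like nuclei. In granule-like nuclei it made up 85.5% ± 2.09. In all inhibitory nuclei it made up 74.2, 83.3 and 61.6% in mice 1, 2 and 3, and each was below every mouse's value in all glutamatergic nuclei (89.6 to 90.8%). The lowest single values were 52.9% in Cnr1-like and 54.0% in Lamp5-like nuclei, both of mouse 3.

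**Figure D3:**
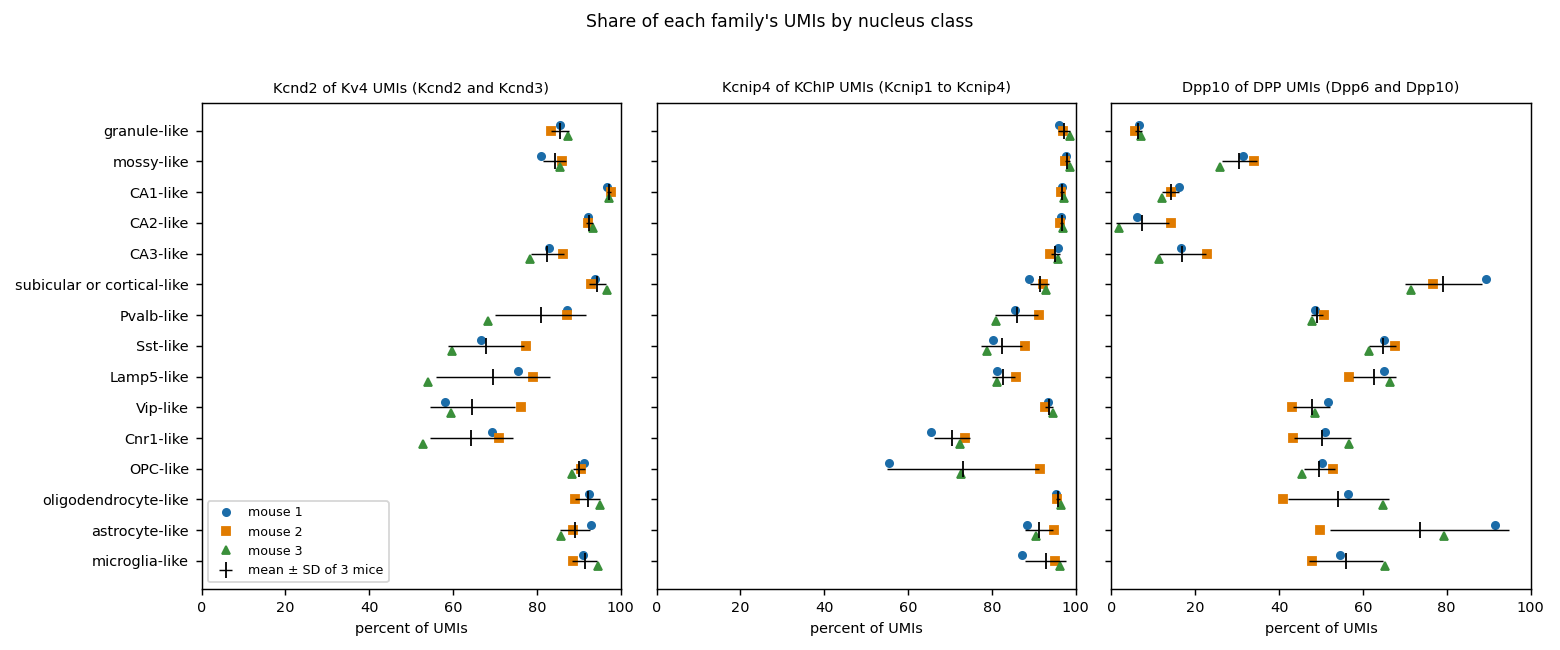
Share of each family's UMIs taken by Kcnd2 (of Kcnd2 and Kcnd3), Kcnip4 (of the 4 KChIPs) and Dpp10 (of Dpp6 and Dpp10) in percent, by class; symbols are mice and crosses the mean ± SD of 3 mice. Dpp10 takes 6.45% in granule-like and 79.2% in subicular or cortical-like nuclei by the mean.

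The start sites of the pore subunit genes are shown because these paralogs were called in opposite directions. The windows are the 250 bases before the RefSeq start on GRCm38.p6 (plus strand for both), chr6:21215096-21215345 for Kcnd2 and chr3:105451640-105451889 for Kcnd3. Capitals mark a match to the GC box letters GGGCGG on either strand.
Kcnd2: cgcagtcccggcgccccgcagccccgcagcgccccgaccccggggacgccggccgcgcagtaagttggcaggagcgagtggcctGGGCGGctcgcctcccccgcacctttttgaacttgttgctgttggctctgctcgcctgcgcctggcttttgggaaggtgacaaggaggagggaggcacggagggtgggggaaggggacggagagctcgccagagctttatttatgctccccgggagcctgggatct
Kcnd3: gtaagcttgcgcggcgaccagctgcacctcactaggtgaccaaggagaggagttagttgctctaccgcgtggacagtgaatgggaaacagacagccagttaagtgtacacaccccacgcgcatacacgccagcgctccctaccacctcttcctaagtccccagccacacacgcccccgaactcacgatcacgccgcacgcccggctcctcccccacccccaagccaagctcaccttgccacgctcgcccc
The Kcnd2 window held 1 GC box and the Kcnd3 window none, at 68.8 and 62.8% G and C. The same letters are found in 32.7% of the 32851 RefSeq promoter windows of this length, whose median is 52.4% G and C. None of the 15 windows of the 8 members held the cyclic AMP response element TGACGTCA or the E-box CACGTG, found in 1.55 and 6.02% of all windows. A match is a description of these letters only.

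Kcnip4, a KChIP with a splice form known to slow the inactivation of Kv4 channels, was highest in granule-like nuclei by the mean. It had 10682, 12720 and 17044 CPM there in mice 1, 2 and 3. CA pyramidal-like nuclei had 6586, 6229 and 4941 CPM. Granule-like nuclei were higher in each mouse without overlap, and the fitted log2 fold change was 1.19 ± 0.234 (SE, adjusted p = 0.00989, edgeR). It was 1.25 without mouse 2 (adjusted p = 0.0558, edgeR) and 0.90 without mouse 3, under the fold threshold.

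Inhibitory nuclei had less Kcnip4 than glutamatergic nuclei as a whole, with 2242, 3953 and 1988 against 7906, 7372 and 9633 CPM in mice 1, 2 and 3. The log2 fold change was -1.79 ± 0.311 (SE, adjusted p = 0.0160, edgeR), and the groups did not overlap. Vip-like nuclei went against that difference. They had 9042, 6472 and 12143 CPM, in the range of glutamatergic classes and above every value of Sst-like nuclei (1038, 2619 and 821 CPM) and Lamp5-like nuclei (1471, 2180 and 1441 CPM). Vip-like nuclei held 68, 219 and 26 nuclei. In mouse 2, 206 of them came from a sub-cluster of that mouse alone, named by 3 of 6 Vip markers. At Leiden resolution 1.0 mouse 2 had 13 Vip-like nuclei, so its value is less sure than those of mice 1 and 3.

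Kcnip1, a KChIP that speeds recovery from inactivation, marked the inhibitory classes. In all inhibitory nuclei it had 395, 287 and 398 CPM in mice 1, 2 and 3. In all glutamatergic nuclei it had 22.1, 34.1 and 16.4 CPM. Inhibitory nuclei were higher in each mouse without overlap, by 3.83 ± 0.313 on the log2 scale (SE, adjusted p = 0.00337, edgeR), and the call held with any 1 mouse left out (3.52 to 4.25).

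Cnr1-like nuclei, marked by the cannabinoid receptor, had the highest Kcnip1 of all classes, with 652, 794 and 962 CPM. Each of these was above every value of the class next by the mean, Vip-like nuclei (562, 380 and 631 CPM). The Vip-like value of mouse 2 rests mostly on the sub-cluster named by 3 of 6 Vip markers, which had 266 CPM. Its leading genes included the Cnr1 marker Npas1 and not Vip. Mouse 2 had 219 Vip-like and 64 Cnr1-like nuclei here, but 13 and 161 at Leiden resolution 1.0. The gap between these classes is therefore not sure in mouse 2. Among the other named inhibitory classes Pvalb-like nuclei followed with 434, 340 and 299.0 CPM, then Lamp5-like (300.2, 228 and 280.4) and Sst-like nuclei (214, 258 and 206 CPM). Kcnip1 did not pass the test between Pvalb-like and Sst-like nuclei (log2 fold change 0.66 ± 0.201, SE, adjusted p = 0.0611, edgeR). Principal neurons of the dentate gyrus and CA fields had hardly any. Granule-like nuclei had 8.06, 5.54 and 4.33 CPM, and CA pyramidal-like nuclei 7.34, 8.32 and 2.44 CPM.

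The share of nuclei with at least 1 Kcnip1 UMI was compared at equal depth. With every nucleus thinned to 1000 UMIs, and those with fewer left out, it was 40.0, 41.7 and 44.1% of Cnr1-like nuclei (85 of 85, 60 of 64 and 34 of 34 kept). In CA pyramidal-like nuclei it was 1.13, 1.65 and 0.461% (1422 of 1422, 848 of 860 and 651 of 651 kept). In oligodendrocyte-like nuclei, the class set beside them, it was 0.555, 3.68 and 1.88% (1622 of 1628, 1005 of 1353 and 586 of 586 kept). The CA pyramidal-like share was below the oligodendrocyte-like share in mice 2 and 3, where no expression is read from it, and above it in mouse 1. Without thinning the shares were 84.7, 76.6 and 97.1% of Cnr1-like, 6.399, 6.28 and 5.99% of CA pyramidal-like and 1.78, 5.76 and 7.17% of oligodendrocyte-like nuclei. The median nucleus held 13505, 2328.5 and 45548 UMIs in the Cnr1-like class and 2867.5, 1488 and 6064 in the oligodendrocyte-like class, and CA pyramidal-like nuclei held 15933.5, 5652 and 43360.

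Outside the inhibitory classes, subicular or cortical-like and Cajal-Retzius-like nuclei had Kcnip1 in the range of inhibitory classes. Cajal-Retzius-like nuclei had 528, 298 and 170.3 CPM, from 112, 22 and 45 UMIs. Subicular or cortical-like nuclei had 211, 199 and 394 CPM, all above every CA pyramidal-like value. The fitted log2 fold change was 5.34 ± 0.579 (SE, adjusted p = 0.00448, edgeR) and ran from 4.55 to 5.82 with 1 mouse left out. The inhibitory markers summed to 1.49, 8.87 and 2.55% of their inhibitory level in these nuclei. Within the class Kcnip1 was not shared by all. A sub-cluster led by Kcnip1, Kcnh8 and Grik1 had 455, 482 and 550 CPM in mice 1, 2 and 3, and a sub-cluster with Rai14 and Cobll1 first had 27.6 and 21.3 CPM in mice 1 and 3. The sub-clusters were formed without the members, and their values are given with no test.

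Kcnip3, known also as DREAM or calsenilin for its roles outside the channel, was lower in inhibitory than in glutamatergic nuclei. Inhibitory nuclei had 32.3, 109.8 and 23.5 CPM, and glutamatergic nuclei had 232, 262 and 193 CPM in mice 1, 2 and 3. The groups did not overlap, and the log2 fold change was -2.50 ± 0.395 (SE, adjusted p = 0.0129, edgeR). The inhibitory value was highest in mouse 2, where the glutamatergic markers summed to 43.3% of their glutamatergic level in inhibitory nuclei, against 14.8 and 14.7% in mice 1 and 3. The part of those transcripts in the Kcnip3 value was not tested. Among granule-, mossy-, CA- and subicular or cortical-like nuclei Kcnip3 was highest by the mean in subicular or cortical-like (321, 309.4 and 278 CPM) and granule-like nuclei (340.4, 337 and 199.96 CPM) and lowest in mossy-like nuclei (51.7, 79.1 and 58.5 CPM). Granule-like against CA pyramidal-like nuclei passed the p threshold but not the fold (log2 fold change 0.79 ± 0.177, SE, adjusted p = 0.0165, edgeR).

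Kcnip2, the KChIP best known from cardiac muscle, varied between mice. Over all nuclei it had 62.1, 51.3 and 17.96 CPM in mice 1, 2 and 3, so that mouse 3 was lowest. The same order held in granule-, CA1-, CA2- and CA3-like nuclei. Within each mouse CA2-like nuclei were highest among the CA and granule classes, with 156, 79.0 and 69.9 CPM. CA3-like nuclei had 119, 72.1 and 31.9 CPM and CA1-like nuclei 73.1, 44.3 and 21.6 CPM, so the gap to CA3-like nuclei was small in mouse 2. The CA2-like value of mouse 3 came from 29 nuclei, and 0 were named so at Leiden resolution 1.0 or with doublets kept. Inhibitory nuclei had 24.9, 31.1 and 6.27 CPM and glutamatergic nuclei 72.7, 57.8 and 20.3 CPM, each mouse being lower in inhibitory nuclei while the groups overlapped across mice. The log2 fold change within mice was -1.48 ± 0.190 (SE, adjusted p = 0.00828, edgeR), and without the mouse block it was not called (-1.40, adjusted p = 0.150, edgeR). Pvalb-like nuclei had 57.9, 30.3 and 12.5 CPM and Sst-like nuclei 11.0, 18.9 and 3.29 CPM, a difference of 1.80 ± 0.449 on the log2 scale (SE, adjusted p = 0.0213, edgeR). Each mouse was higher in Pvalb-like nuclei, and the classes overlapped across mice. That call was lost without mouse 1 (1.31, adjusted p = 0.446), without mouse 3 (1.77, adjusted p = 0.0794, edgeR) and with each library clustered alone (1.08, adjusted p = 0.140). It was also lost with doublets kept (1.46, adjusted p = 0.0784, edgeR), a fit that held 2 mice, since mouse 3 then had 13 Pvalb-like nuclei, under the minimum of 20.

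Of the 5 calls between inhibitory and glutamatergic nuclei, 4 (Kcnd2, Kcnip2, Kcnip3 and Kcnip4, all lower) depended on which mice entered. Without mouse 1 only Kcnip1 was called, with 3.10% of all genes, and without mouse 3 Kcnip1 and Kcnip2 were, with 7.15% of all genes. The 4 log2 fold changes stayed negative in each fit with 1 mouse left out, the weakest being -1.33 for Kcnd2 and Kcnip2. DESeq2 did not call Kcnip4 (-1.79, adjusted p = 0.0937).

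Dpp6, an auxiliary subunit of the Kv4 channels of hippocampal dendrites, varied less across neuronal classes than Dpp10. Cajal-Retzius-like nuclei had the least of the neuronal classes (345 ± 59.2 CPM, SD, n = 3). In the others Dpp6 ran from 673 ± 42.3 CPM (SD, n = 3) in mossy-like to 1615 ± 510 CPM in CA2-like nuclei. Mossy-like and CA2-like nuclei did not overlap in Dpp6. The CA2-like values were 1459, 1201 and 2184 CPM, that of mouse 3 from 29 nuclei. In granule-like nuclei it had 1134, 1125 and 1252 CPM and in Sst-like nuclei 1233, 1275 and 1504 CPM. Dpp6 was called in none of the 7 comparisons by edgeR. At an unadjusted p under 0.05 it passed in 2, neuron-like against glia-like and OPC-like against oligodendrocyte-like nuclei, and DESeq2 called it in those 2.

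Dpp10, its paralog, differed widely between principal neuron classes. In subicular or cortical-like nuclei it had 6377, 3120 and 3354 CPM in mice 1, 2 and 3. CA pyramidal-like nuclei had 161, 203 and 149.7 CPM. The classes lay far apart in all 3 mice, and the fitted log2 fold change was 4.36 ± 0.320 (SE, adjusted p = 0.00205, edgeR). It ran from 3.98 to 4.68 with 1 mouse left out. With each library clustered alone it was 3.44 and not called (adjusted p = 0.0653, edgeR).

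Granule-like nuclei had the least Dpp10 by the mean, with 81.3, 66.8 and 95.2 CPM. They were below the CA pyramidal-like nuclei in each mouse, without overlap (log2 fold change -1.05 ± 0.188, SE, adjusted p = 0.00684, edgeR). The fold against the pool is close to the threshold and was -0.81 without mouse 2 (adjusted p = 0.0516, edgeR). It was -0.99 with each library clustered alone (adjusted p = 0.0826) and -0.93 with nuclei thinned to 1000 UMIs (adjusted p = 0.0457, edgeR). In Sst-like nuclei Dpp10 had 2300.1, 2668 and 2392 CPM and in Pvalb-like nuclei 1016, 1058 and 1121 CPM. Pvalb-like nuclei were lower in all 3 mice without overlap, by -1.21 ± 0.184 on the log2 scale (SE, adjusted p = 0.000435, edgeR), and the call held with any 1 mouse left out (-1.26 to -1.13). With each library clustered alone Pvalb-like nuclei were lower by 0.67 on the log2 scale, under the fold threshold.

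Dpp10 and Kcnip1 were both higher in subicular or cortical-like nuclei. In no mouse were they highest in the same sub-cluster of that class, among those with at least 20 nuclei. The sub-cluster led by Kcnip1 had 1343, 301 and 508 CPM of Dpp10 in mice 1, 2 and 3, each above that mouse's CA pyramidal-like nuclei. The Rai14 and Cobll1 sub-cluster had 10329 and 10247 CPM of Dpp10 in mice 1 and 3. In mouse 2 a sub-cluster led by Rai14 and Vwc2l had 2774 CPM of Dpp10 and 155 CPM of Kcnip1. The sub-cluster led by Kcnip1 had 482 CPM of Kcnip1 in that mouse. High Dpp10 was not limited to the named class. Among glutamatergic nuclei with no finer name, 1 sub-cluster led by Pdzrn3, Gpc6 and Cux2 had 8412 and 11815 CPM of Dpp10 in mice 1 and 3, with 1.32 and 0.632 CPM of Kcnip1.

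**Figure D4:**
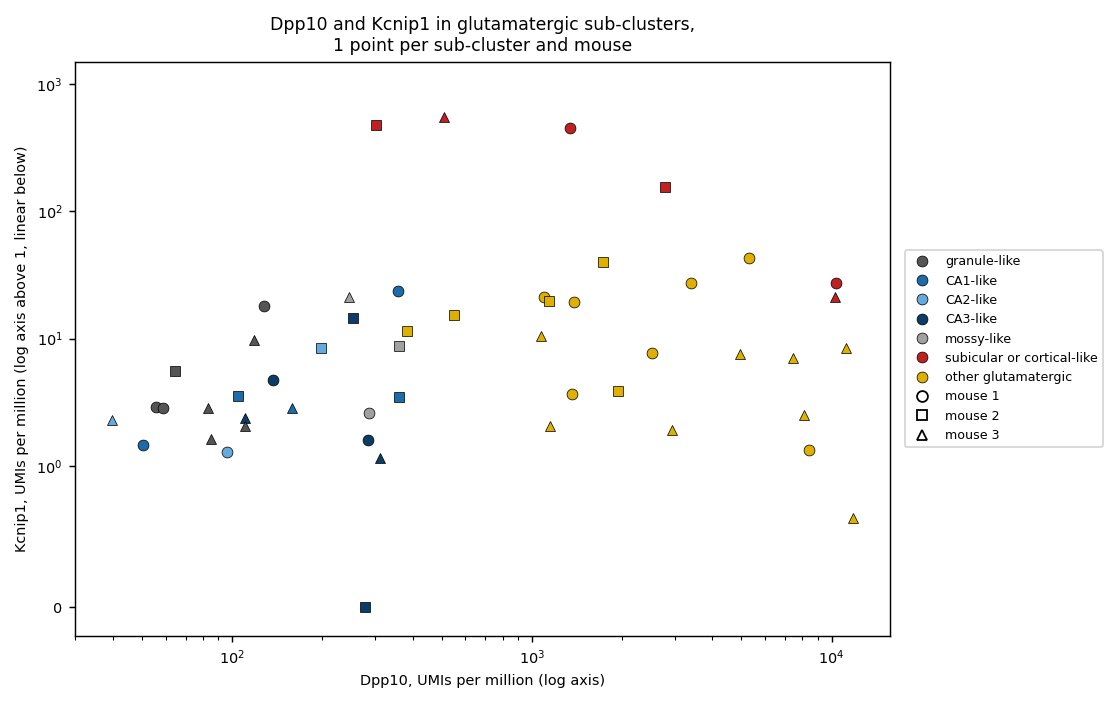
Dpp10 (log axis) against Kcnip1 (log axis above 1, linear below), both in CPM, in each glutamatergic sub-cluster and mouse with at least 20 nuclei; colour is the class and shape the mouse. The points of subicular or cortical-like nuclei with the highest Kcnip1 (455 to 550) have 301 to 1343 of Dpp10.

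Among the UMIs of Dpp6 and Dpp10, the Dpp10 share was 6.45% ± 0.762 (SD, n = 3) in granule-like, 14.1% ± 2.13 in CA1-like and 16.9% ± 5.63 in CA3-like nuclei. It was 79.2% ± 9.15 in subicular or cortical-like and 64.7% ± 3.15 in Sst-like nuclei. All values of granule-, CA1-, CA2- and CA3-like nuclei (1.79 to 22.7%) were below all values of the 5 named inhibitory classes (43.0 to 67.7%). Among the KChIPs Kcnip4 took 96.4% ± 1.16 of UMIs in glutamatergic and 85.3% ± 4.34 in inhibitory nuclei. Its lowest share among neuronal classes was 70.5% ± 4.38 in Cnr1-like nuclei, where Kcnip1 took 27.8% ± 4.41.

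The DPP windows are shown for the same reason, as paralogs of unlike pattern. They are the 250 bases before the RefSeq start on GRCm38.p6, chr1:124045560-124045809 on the minus strand for Dpp10 and chr5:26817107-26817356 on the plus strand for 1 of 3 starts of Dpp6. Capitals mark GGGCGG on either strand in Dpp10 and the TATA box letters TATAAA on either strand in Dpp6.
Dpp10: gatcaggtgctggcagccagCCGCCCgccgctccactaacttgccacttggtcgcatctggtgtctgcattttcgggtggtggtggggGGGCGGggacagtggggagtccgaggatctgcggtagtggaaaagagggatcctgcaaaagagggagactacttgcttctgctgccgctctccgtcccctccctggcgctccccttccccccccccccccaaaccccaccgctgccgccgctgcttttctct
Dpp6: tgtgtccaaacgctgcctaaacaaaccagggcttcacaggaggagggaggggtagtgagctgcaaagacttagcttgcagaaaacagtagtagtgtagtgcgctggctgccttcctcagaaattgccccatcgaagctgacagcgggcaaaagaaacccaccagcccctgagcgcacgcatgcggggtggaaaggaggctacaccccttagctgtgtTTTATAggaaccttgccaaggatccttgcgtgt
Dpp10 held 2 GC boxes in its only window. This Dpp6 window held no GC box and 1 TATA match, found in 12.4% of all windows, and the other Dpp6 windows held 1 GC box each.

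In glia, the OPC-like nuclei stood out. Kcnd2 had 4063, 2897 and 4084 CPM in OPC-like nuclei of mice 1, 2 and 3. Each value was above that mouse's granule-like nuclei (2735, 2814 and 3916 CPM). All were below every value of CA1-like nuclei (4124, 4818 and 5924 CPM). Oligodendrocyte-like nuclei had 340, 1425 and 720 CPM. OPC-like nuclei were higher in every mouse without overlap, by 2.35 ± 0.570 on the log2 scale (SE, adjusted p = 0.0403, edgeR). Kcnip3 had 700.0, 318 and 309 CPM in OPC-like and 21.2, 137 and 34.5 CPM in oligodendrocyte-like nuclei, without overlap (log2 fold change 3.10 ± 0.765, SE, adjusted p = 0.0424, edgeR). The OPC-like mean of Kcnip3, 442 ± 223 CPM (SD, n = 3), was the highest of all classes, neurons included, though it overlapped the next class.

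Kcnd3 in OPC-like nuclei had 390, 307 and 539 CPM, against 27.5, 175 and 38.2 CPM in oligodendrocyte-like nuclei (2.85 ± 0.697, SE, adjusted p = 0.0412, edgeR). Kcnip1 had 214, 94.5 and 659 CPM against 6.73, 37.9 and 29.5 CPM (3.63 ± 0.789, SE, adjusted p = 0.0297), with OPC-like values far apart between the mice. Dpp10 had 920, 925 and 542 CPM against 147, 392 and 284 CPM (1.57 ± 0.392, SE, adjusted p = 0.0441, edgeR). None of these members overlapped between the classes. Dpp6 missed the threshold (1.86 ± 0.504, SE, adjusted p = 0.0552, edgeR). Kcnip2 (log2 fold change -0.03) and Kcnip4 (0.28) were not called.

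All 5 OPC calls depended on which mouse was left out. None was made without mouse 1 or without mouse 3, where 5.13 and 4.58% of all genes tested were called. All 5, with Dpp6, were made without mouse 2, where 25.2% of all genes were called. The lowest log2 fold changes in those fits were 1.79 for Kcnd2, 2.26 for Kcnd3, 2.96 for Kcnip1, 2.20 for Kcnip3 and 1.11 for Dpp10, so the direction did not change. With each library clustered alone only Kcnip1 of the 5 was called, and without the mouse block Kcnd3 and Dpp10 were not (adjusted p = 0.0659 and 0.0587, edgeR). Dpp10 was also not called with doublets kept (1.21, adjusted p = 0.0544) or with nuclei thinned to 1000 UMIs (1.35, adjusted p = 0.0501, edgeR).

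Glia-like nuclei also carried transcripts of glutamatergic neurons. The 8 glutamatergic markers summed in oligodendrocyte-like nuclei to 42.0, 69.8 and 30.5% of what neuron-like nuclei of mice 1, 2 and 3 had, and none of the 8 was at 0. Kcnd2 stood at 12.9, 57.2 and 22.2% there, Kcnip4 at 12.5, 69.7 and 20.5% and Dpp6 at 11.6, 58.3 and 13.2%. In each mouse these 3 members were below the marker sum, and mouse 2 was highest. Of the other members only Kcnip2 in mouse 2 (76.0%) and Kcnip1 in mouse 3 (55.4%) were above it. In OPC-like nuclei the markers stood at 28.7, 64.6 and 23.4%, while Kcnd2 stood at 154, 116 and 126%, Kcnd3 at 129, 107 and 128% and Kcnip3 at 337, 140 and 175% of the neuron-like level. These 3 were above the marker sum in each mouse. Kcnip4, at 16.0, 72.2 and 29.0% in OPC-like nuclei, was below it in mouse 1 and above it in mice 2 and 3. The part of these transcripts in the member values was not tested. The 8 inhibitory markers summed in OPC-like nuclei to 66.6, 51.8 and 64.2% of their inhibitory level, and Dlx1 was at 0 in mouse 3. Most of that sum came from Erbb4 (3283, 1820 and 4223 CPM) and Nxph1 (2809, 1140 and 1861 CPM). The defining markers were lower: Gad2 had 15.6, 22.9 and 20.8 CPM in OPC-like against 427, 283 and 991 CPM in inhibitory nuclei, and Slc32a1 had 4.69, 6.23 and 1.10 against 37.3, 21.0 and 24.9 CPM. Kcnip1 in OPC-like nuclei, at 214, 94.5 and 659 CPM, stood beside 395, 287 and 398 CPM in inhibitory nuclei.

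**Figure D5:**
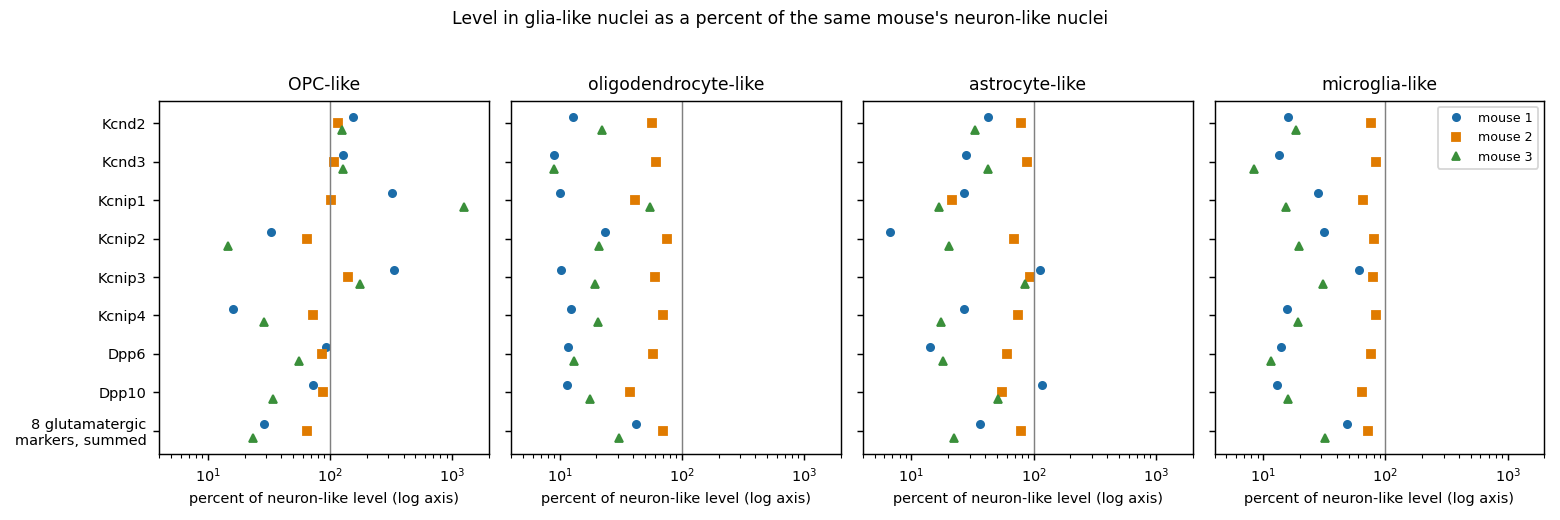
Level of each member and of the summed glutamatergic markers in 4 glial classes, as a percent (log axis) of the same mouse's neuron-like nuclei; symbols are mice and the line marks 100%. Kcnd2, Kcnd3, Kcnip1 and Kcnip3 lie above 100 in OPC-like nuclei of all 3 mice, and in oligodendrocyte-like nuclei all 8 members lie below it.

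Between all neuron-like and all glia-like nuclei the differences were large but uneven over mice. Dpp10 (1269, 1049 and 1599 CPM against 308, 596 and 431 CPM) was called, at 1.97 ± 0.451 on the log2 scale (SE, adjusted p = 0.0392, edgeR). Kcnd3 (303, 288 and 421 CPM against 88.6, 225 and 170.1 CPM) was called too, at 1.54 ± 0.392 (SE, adjusted p = 0.0467, edgeR). Neither gene's values overlapped between the classes. Both calls were lost without mouse 1 and without mouse 3, where the log2 fold changes were 1.79 and 1.66 for Dpp10 and 1.27 and 1.30 for Kcnd3. Without mouse 2, the library with the most neuronal transcripts in glia, 7 members were called, all but Kcnip1, and so were 33.2% of all genes tested. Kcnip1 had 66.4, 92.4 and 53.3 CPM in neuron-like and 41.8, 55.0 and 157 CPM in glia-like nuclei. Mouse 3 was higher in glia-like nuclei, where its OPC-like nuclei had 659 CPM. DESeq2 called 6 of the members and 31.8% of all genes. With each library clustered alone none was called (adjusted p = 0.0628 for Dpp10 and 0.0539 for Kcnd3, edgeR), and with thinned nuclei Kcnd3 was not (adjusted p = 0.0605). Without mouse 3 edgeR called 0 genes of any kind, with 5442 at an unadjusted p under 0.05.

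The wider set of A-type and Kv4-related genes is given from the same edgeR fits, by counts called. Of all genes tested, 14.6% were called between inhibitory and glutamatergic, 19.1% between granule-like and CA pyramidal-like and 10.7% between CA3-like and CA1-like nuclei. The share was 4.36% between Pvalb-like and Sst-like and 24.1% between neuron-like and glia-like nuclei. The counts of the lists were not tested against these shares. Of 7 other A-type subunit genes, such as the Kv1.4 gene Kcna4 and the Kv3.4 gene Kcnc4, 3 were called between inhibitory and glutamatergic nuclei, 1 higher and 2 lower. Kcna4 was lower by a log2 fold change of -1.90 ± 0.242 and Kcnab3, a Kv beta subunit, was higher by 1.74 ± 0.205 (SE). In granule-like against CA pyramidal-like nuclei 3 of the 7 were called, with Kcnc4 higher by 3.07 ± 0.246 and Kcnab3 lower by -1.37 ± 0.319. In CA3-like against CA1-like nuclei 2 were called, both lower, Kcnab3 by -1.84 ± 0.281 and Kcnab1 by -1.05 ± 0.110. In Pvalb-like against Sst-like nuclei 3 of 6 tested were called, Kcnab3 (1.76 ± 0.353) and Kcnab1 (1.15 ± 0.174) higher and Kcnc4 lower (-1.69 ± 0.427). In neuron-like against glia-like nuclei 4 of 7 were called, all higher.

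Of 18 Kv4 regulators and scaffolds 17 were tested in each comparison. The share of all genes called was 19.1% between granule-like and CA pyramidal-like, 10.7% between CA3-like and CA1-like and 14.6% between inhibitory and glutamatergic nuclei. In granule-like against CA pyramidal-like nuclei 4 were called, with Prkacb, a catalytic subunit of protein kinase A, higher by 2.21 ± 0.135 and the T-type calcium channel gene Cacna1i lower by -3.42 ± 0.244 (SE). T-type channels supply calcium to KChIPs in some neurons. In CA3-like against CA1-like nuclei 2 were called, both lower, Cacna1g by -1.21 ± 0.153 and the scaffold Flna by -1.15 ± 0.161. In inhibitory against glutamatergic nuclei 3 were called, all lower, among them Cacna1h (-1.64 ± 0.236) and Camk2a (-1.09 ± 0.210). None was called between Pvalb-like and Sst-like nuclei, where 4.36% of all genes were called. In neuron-like against glia-like nuclei 7 were called, 6 higher and 1 lower (24.1% of all genes). In subicular or cortical-like against CA pyramidal-like nuclei 5 were called, 2 higher and 3 lower (13.2%). In OPC-like against oligodendrocyte-like nuclei 1 was called, lower (16.3%).

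Of 6 neuronal calcium sensors, the family to which KChIPs are related, 3 were called in granule-like against CA pyramidal-like nuclei (19.1% of all genes). Ncald was higher by 2.03 ± 0.136, and Hpca (-2.22 ± 0.263) and Vsnl1 (-1.78 ± 0.258) were lower. In CA3-like against CA1-like nuclei Hpcal1 (2.24 ± 0.263) and Ncald (1.73 ± 0.118) were higher. Of 5 peptidases related to Dpp6 and Dpp10, Dpp4 was called in 3 comparisons and Fap, the fibroblast activation protein gene, in 2. Dpp4 was lower in granule-like than in CA pyramidal-like nuclei (-2.35 ± 0.549), and higher in CA3-like than in CA1-like (2.34 ± 0.379) and in subicular or cortical-like than in CA pyramidal-like nuclei (3.35 ± 0.364, SE). Fap was higher in subicular or cortical-like than in CA pyramidal-like nuclei (3.56 ± 0.647, SE; 8.79, 5.22 and 5.05 against 0.191, 0.337 and 0.898 CPM) and lower in inhibitory than in glutamatergic nuclei (-2.93 ± 0.645, SE), where the inhibitory sums held 1, 4 and 2 UMIs.

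The genes whose pattern over classes was most like that of a member were found by Pearson's r of log2(CPM + 1), centred within mice, over 57 sums of 19 classes. The sums share libraries and depth, and r is given as a description over 9962 genes. Members were among each other's nearest genes once: Kcnd2 was the gene with the third highest r to Kcnip3 (0.708), after Fry (0.723) and Ranbp9 (0.713). Kcnd2 itself was most like Gm47591 (0.753) and Kalrn (0.751), and Kcnd3 most like Gm43847 (0.882) and Nmnat2 (0.824). Kcnd3 and Dpp6 had r = 0.780, and both had Fgf14 among their first 3 (0.792 and 0.880). Kcnip4 was most like Caln1 (0.781) and Kcna4 (0.754), and Kcnip4 and Kcnip2 had r = 0.717. Kcnip1 was most like Vwc2 (0.906), a marker used for Pvalb-like nuclei, and Grik1 (0.874). Dpp10 was most like Ptprt (0.817) and Neto2 (0.812), and Kcnip2 like Lingo1 (0.778) and Slit3 (0.757). Dpp6 was most like Ksr2 (0.892) and Unc79 (0.881). Kcnd2 and Kcnd3 had r = 0.308.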

How the data were processed

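Single-nucleus RNA of 3 mice was analysed from the UMI count matrices the authors deposited, which are whole-number counts per gene and barcode with no normalization. They were made with Cell Ranger 7.0.0 (mice 1 and 2) and 7.1.0 (mouse 3), per the file headers, on mm10, as named in the submitters' processing notes. The treatment of intronic reads and of strand is not stated in the labels or headers.

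Nuclei under 500 genes or over 5% mitochondrial UMIs were removed (scanpy 1.11.5, Python 3.11.15). Scrublet doublets were removed (732, 1445 and 265); in mouse 2 its automatic threshold marked 0, so the number of doublets was set by an expected rate of 0.8% per 1000 nuclei. Leiden clusters (3000 variable genes without the members and context genes, 30 components, resolution 1.5, leidenalg 0.10.2) were named from fixed markers, and the naming rules were adjusted after clusters were seen. Levels are CPM of counts summed per mouse and class with at least 20 nuclei.

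Sums were tested with edgeR 4.0.16 (R 4.3.3; quasi-likelihood test with TMM, filterByExpr and a term for the mouse), and p-values were adjusted by Benjamini-Hochberg over every gene in the fit; the SE is the log2 fold change divided by the root of F. Only the classes compared entered a fit, except that Pvalb-like and Sst-like nuclei were compared in a fit over 5 inhibitory classes. The replicate number is the mouse, so pairing comes from the same animal; correlations of deviations within a mouse were 0.102 to 0.740. DESeq2 1.42.0 and other settings were alternatives. The test was also run on simulated counts drawn with no mouse effect, so that run does not check the mouse term.

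The members and lists were chosen with earlier results of these data known. All 8 members are named, and of each context list called genes among the 2 of largest change per direction and comparison, not in every comparison, and the 3 genes with the highest r to each member. A result among the A-type subunit genes is not reported here.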

Additional observations from a re-analysis of the deposited data

How the results depend on the processing

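Of 556 member log2 fold changes under the alternatives, 448 kept their direction and their side of the threshold, 54 were no longer called, 25 were newly called and 29 changed sign, all 29 of members not called in the report. The calls of Kcnd2 and Kcnd3 between CA3-like and CA1-like nuclei held in every alternative but the fit with no replicate block. Depth was lowest in mouse 2, with a median of 1796 UMIs per kept nucleus against 8421 and 24859 in mice 1 and 3. Without it edgeR called 6422 genes between neuron-like and glia-like nuclei, against 4228 with all mice, and 3234 between OPC-like and oligodendrocyte-like nuclei, against 2018.

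With 1 mouse left out, edgeR called 0 to 6422 genes and 0 to 7 members between neuron-like and glia-like nuclei (0 genes without replicate 3, with 5442 at an unadjusted p under 0.05), 522 to 2795 genes and 1 to 5 members between inhibitory and glutamatergic, 2586 to 2978 genes and 0 to 3 members between granule-like and CA pyramidal-like, and 1126 to 1406 genes and 2 members between CA3-like and CA1-like nuclei. It called 889 to 2194 genes and 2 to 3 members for subicular or cortical-like, 576 to 3234 genes and 0 to 6 members for OPC-like, and 286 to 544 genes and 2 to 3 members for Pvalb-like nuclei.

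With no replicate block 1237 genes were called between inhibitory and glutamatergic, 1897 genes and 0 members for granule-like, 441 genes and 0 members for CA3-like, 1221 genes for subicular or cortical-like, 3 members for OPC-like, and 151 genes and 0 members for Pvalb-like nuclei. Thinned to 1000 UMIs, 2239 genes and 1 member were called for neuron-like, 980 genes for inhibitory, 1297 for granule-like, 443 for CA3-like, 737 for subicular or cortical-like, 1155 for OPC-like and 97 for Pvalb-like nuclei. With each library clustered alone 0 members were called for neuron-like, 1161 genes and 1 member for subicular or cortical-like, 1 member for OPC-like and 1 member for Pvalb-like nuclei. Between neuron-like and glia-like nuclei 6 members were called by DESeq2 (5573 of 17518 genes), 4 with no filter on low counts (4852 of 26986 genes), 4 with doublets kept (3968 of 17869) and 4 at Leiden resolution 1.0 (4337 of 17455). With no filter 786 genes were called for Pvalb-like nuclei.

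The values that changed sign were as follows; the cause was not tested. With libraries clustered alone, Dpp6 was 0.0035 between inhibitory and glutamatergic and 0.044 for CA3-like nuclei, Kcnip1 was 0.22 for CA3-like, Kcnip4 0.10 for subicular or cortical-like and Kcnip3 -0.063 for Pvalb-like nuclei. At Leiden resolution 1.0, Kcnip1 was -0.097 for granule-like, Dpp6 0.086 and Dpp10 -0.48 for CA3-like, and Kcnip2 0.021 for OPC-like nuclei. With doublets kept, Dpp6 was 0.17 and Dpp10 -0.77 for CA3-like, Kcnip4 -0.11 for OPC-like and Kcnip3 -0.033 for Pvalb-like nuclei. Thinned, Kcnd2 was 0.012 for granule-like, Kcnip4 -0.13 for OPC-like and Kcnip3 -0.64 for Pvalb-like nuclei. With no replicate block, Kcnip1 was 0.16 and Kcnip3 0.0042 for CA3-like, and Kcnip4 was 0.053 for subicular or cortical-like nuclei. With 1 mouse left out, Dpp6 ran from -0.041 to 0.0084 between inhibitory and glutamatergic nuclei, and Kcnip1 from -0.083 to 0.48 for granule-like nuclei. For CA3-like nuclei Dpp6 ran from -0.057 to 0.044, Kcnip1 from -0.75 to 0.54 and Kcnip3 from -0.27 to 0.19. Kcnip4 ran from -0.41 to 0.26 for subicular or cortical-like, Kcnip2 from -0.29 to 0.15 for OPC-like and Kcnip3 from -0.15 to 0.40 for Pvalb-like nuclei.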
